A study of Homo sapiens with 12 samples.

Results

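The genes described here are 37 genes of glucose metabolism. They carry glucose into the cell, break it down to pyruvate and lactate, gate pyruvate use in the mitochondrion, or run the pentose phosphate pathway. They were selected by gene symbol for their place in the pathway, with earlier results of these data known, out of 43236 symbols counted in each library. MNNG/HOS, named HOS-MNNG in the sample labels, is a human osteosarcoma cell line transformed with a chemical carcinogen, and it was grown in high glucose medium with fetal bovine serum. Cells received 300 nM NXP800, a small oral molecule under study in osteosarcoma, or DMSO, its solvent, which served as the control. Polyadenylated RNA was sequenced after 6 h or 24 h, with 3 libraries in each of the 4 groups (DMSO 6 h, NXP800 6 h, DMSO 24 h and NXP800 24 h), 12 libraries in all. All groups share this single line, and the labels do not say whether replicates were separate cultures. The study's methods state, for its results in general, that repeats were independent experiments. The p-values measure the spread between these libraries.

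Glucose enters by facilitated diffusion through SLC2A transporters and is trapped by hexokinases as glucose 6-phosphate. Glycolysis then turns it into pyruvate with a net gain of ATP, lactate dehydrogenase regenerates NAD from NADH, and monocarboxylate transporters export the lactate. The pentose phosphate pathway branches off at glucose 6-phosphate and yields NADPH and ribose for nucleotides. Many tumours, osteosarcoma among them, use glucose this way even when oxygen is present, and several of these genes are classical targets of the hypoxia-inducible factor HIF and of MYC.

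The libraries held 30810614 to 31947656 counts on genes. Levels are given in CPM, counts scaled to a common library size after TMM, edgeR's correction for library composition. Levels of different genes are compared only per kilobase of exon, over the joined exons of all annotated transcripts of a gene. Such levels, and the shares drawn from them, depend on that length. Responses are log2 fold changes of NXP800 against the DMSO libraries of the same time, followed after ± by their standard error, and a gene is said to have risen or fallen where edgeR's quasi-likelihood test gave a Benjamini-Hochberg adjusted p below 0.05 over the 15979 genes tested. The mesenchymal marker VIM stood at 3338 to 5891 CPM and the osteoblast factor RUNX2 at 20.7 to 42.5 CPM, while COL1A2 and ALPL, also osteoblast markers, were at or near 0 (highest 0.378 and 0.222 CPM). Of the 6 tested mesenchymal and osteoblast markers, 3 rose and 2 fell at 6 h, and 1 rose and 4 fell at 24 h. Of all tested genes, 25.0% rose and 27.8% fell at 6 h, and 27.5% rose and 28.6% fell at 24 h. The part of these markers in the results was not tested. The 4 epithelial markers summed to 5.62 to 10.2 CPM, nearly all from EPCAM, and the 5 blood cell and endothelial markers to 0.198 to 0.977 CPM. Reads on no annotated gene made up 6.66 to 8.14% of reads in the 6 h libraries and 2.73 to 3.67% in the 24 h libraries, so library set and time cannot be told apart, and levels at 6 h and 24 h are set side by side without a test. In bulk RNA, fewer expressing cells and less RNA per cell cannot be told apart either.

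Promoter windows of 4 members are shown first, because many of these genes are known HIF or MYC targets and the members that moved in opposite directions can be read side by side. RefSeq sequences of 300 bases, 250 before and 50 after a start site on GRCh38.p14, were at hand for 34 of the 37 genes (SLC2A3, SLC16A1 and PFKFB2 had none). In 24 of them, the 4 printed ones included, that site is the RefSeq gene start, and in the other 10 it lies 111 to 10501 bases downstream of it, farthest in SLC16A3. LDHA (chr11:18394313-18394612, plus strand) and ALDOC (chr17:28576846-28577145, minus strand) fell, and HK2 (chr2:74833877-74834176, plus strand) and PGLS (chr19:17511399-17511698, plus strand) rose. Capitals mark the hypoxia response core, ACGTG or GCGTG on either strand. The core is contained in the E-box CACGTG, the motif that MYC binds, so an E-box appears as a longer capital run.
LDHA: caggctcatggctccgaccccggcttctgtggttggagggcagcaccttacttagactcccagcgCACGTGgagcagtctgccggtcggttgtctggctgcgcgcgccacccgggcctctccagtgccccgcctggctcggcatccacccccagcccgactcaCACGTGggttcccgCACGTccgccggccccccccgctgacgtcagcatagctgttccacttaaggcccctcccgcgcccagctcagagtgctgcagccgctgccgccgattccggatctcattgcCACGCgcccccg
ALDOC: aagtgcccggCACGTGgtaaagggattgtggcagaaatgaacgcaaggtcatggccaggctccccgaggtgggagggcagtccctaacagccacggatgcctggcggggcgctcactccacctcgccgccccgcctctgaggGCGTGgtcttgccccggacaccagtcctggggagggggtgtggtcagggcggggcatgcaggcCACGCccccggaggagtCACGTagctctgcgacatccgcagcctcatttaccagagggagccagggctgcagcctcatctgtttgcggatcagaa
HK2: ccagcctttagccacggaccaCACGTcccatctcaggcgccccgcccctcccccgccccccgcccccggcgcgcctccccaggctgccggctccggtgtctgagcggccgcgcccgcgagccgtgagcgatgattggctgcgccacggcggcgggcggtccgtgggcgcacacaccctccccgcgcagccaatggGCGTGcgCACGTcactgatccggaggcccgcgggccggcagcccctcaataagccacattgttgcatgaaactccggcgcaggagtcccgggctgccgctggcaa
PGLS: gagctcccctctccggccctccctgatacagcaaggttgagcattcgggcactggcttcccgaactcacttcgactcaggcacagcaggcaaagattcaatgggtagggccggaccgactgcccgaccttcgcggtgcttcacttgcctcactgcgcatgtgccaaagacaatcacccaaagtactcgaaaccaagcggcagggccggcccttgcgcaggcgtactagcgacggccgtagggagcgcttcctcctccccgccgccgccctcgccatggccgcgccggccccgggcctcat

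The LDHA window holds 6 matches to the core, 4 of which lie in its 2 E-boxes, the ALDOC window holds 5 with 1 E-box, the HK2 window holds 3, and the PGLS window holds none. Members that fell and a member that rose thus both carry these letters. Over the 34 windows, 22 hold at least 1 core match (64.7%), against 48.4% of 27305 promoter windows of the same length. Of the 24 windows at the gene start, 17 hold it (70.8%). The 48.4% covers all windows, wherever their site lies and whatever the kind of gene, and no matched share for gene-start windows is given. Whether the members hold the core more often than like genes was thus not tested. The E-box was found in 3 member windows (LDHA, ALDOC and GAPDH, 8.82%, against 7.44% of all windows), and the GAPDH window lies 747 bases downstream of the gene start. The CARE motif TGATGNAAN, the C/EBP-ATF response element, was found only in HK1 (2.94% against 3.67%), and the heat shock element (GAA, TTC and GAA, each 2 bases apart) in no member window (0 against 0.487%). These matches describe the letters in the windows and not binding.

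Most of the pathway fell. The counts below are a description of genes whose choice was made with earlier results of these data known. Of the 37 members, 36 had enough counts to be tested, and their lowest count in any library was 10. FBP1, the gluconeogenic fructose bisphosphatase, was near 0 (0 to 6 counts per library) and was not tested. At 6 h 27 members were called, where 52.8% of all tested genes were: 23 members fell, where 27.8% of all tested genes fell, 4 rose, where 25.0% of all tested genes rose, and 9 did neither. At 24 h 30 members were called (56.0% of all genes): 26 fell (28.6% of all genes), 4 rose (27.5% of all genes) and 6 did neither. The median log2 fold change of the tested members was -0.36 at 6 h and -0.49 at 24 h, while the median over all tested genes was -0.046 and -0.0033. Changes were mostly moderate. Only HKDC1 was over 2-fold higher, at both times, and only SLC16A3 and ALDOC were over 2-fold lower, both at 24 h (6.02% of all genes rose and 5.23% fell over 2-fold at 6 h, and 6.73% rose and 7.32% fell at 24 h).

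Among the 36 tested members, 25 were called at both times in the same direction (35.0% of all tested genes). None was called in opposite directions (2.12% of all tested genes). With the replicate number as a block, PDK1 was called higher at 6 h and lower at 24 h. The libraries of the groups did not overlap for 30 members at 6 h and for 30 at 24 h, while 62.0% and 59.1% of all tested genes did not overlap. The abundant members all leaned downward, in a split made after the values were seen. Of the 19 members with a mean above 100 CPM, 16 fell at 6 h and all 19 at 24 h, and none rose, whereas of the 2131 tested genes at that level 36.9% fell and 22.9% rose at 6 h and 45.0% fell and 22.1% rose at 24 h. The 4 that rose at 6 h (HK2, HKDC1, PFKFB2 and PGLS) and the 4 that rose at 24 h (HK2, HKDC1, ENO2 and PGLS) were among the 17 members with a lower mean. Summed over the 37 genes, glucose pathway transcripts made up 2.57 to 2.66% of the counts of DMSO 6 h libraries and 2.10 to 2.15% of NXP800 6 h libraries. At 24 h the shares were 2.81 to 2.98% and 2.00 to 2.31%. The ranges of the treated and control libraries did not overlap at either time.

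**Figure D1:**
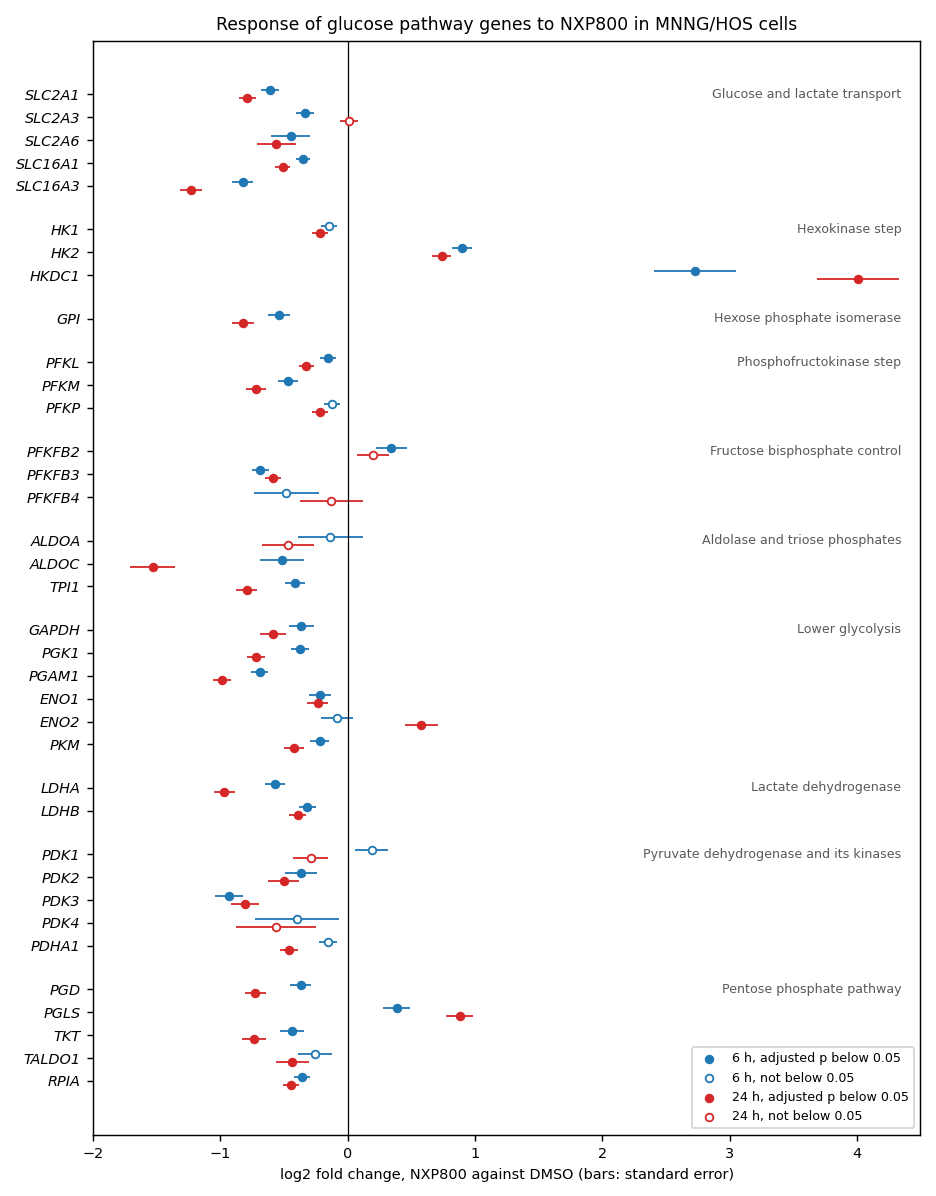
Log2 fold change of NXP800 against DMSO for the 36 tested members in pathway order, at 6 h (blue) and 24 h (red), with the standard error as bars; filled points have an adjusted p below 0.05. Most points lie left of 0, with HK2, HKDC1 and PGLS to the right at both times and ENO2 to the right at 24 h only.

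Transcripts for glucose uptake and lactate export fell, those of the lactate exporter SLC16A3 most. All 5 transporters fell at 6 h and 4 of them at 24 h. SLC2A1, which encodes GLUT1, the basal glucose transporter (chr1:42925353-42958868), was the most abundant SLC2A gene per length, at 54.5 CPM per kilobase in DMSO 6 h libraries against 6.66 for SLC2A3 and 6.47 for SLC2A6. SLC2A1 stood at 348, 369 and 363 CPM with DMSO and 234, 248 and 225 CPM with NXP800 at 6 h. At 24 h SLC2A1 stood at 569.6, 536 and 496 CPM with DMSO and 332, 291 and 304 CPM with NXP800. Every treated library was below every control library of its time, and the log2 fold changes were -0.61 ± 0.070, adjusted p = 2.16e-06 at 6 h and -0.79 ± 0.070, adjusted p = 9.95e-08 at 24 h.

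SLC16A3 encodes MCT4, the low-affinity carrier that exports lactate from glycolytic cells (chr17:82217934-82240086). SLC16A3 stood at 297, 305 and 289 CPM with DMSO and 171, 168 and 163 CPM with NXP800 at 6 h. At 24 h SLC16A3 stood at 479, 538 and 583 CPM with DMSO and 218, 206 and 257 CPM with NXP800. The groups were far apart, with a log2 fold change of -0.83 ± 0.083, adjusted p = 5.45e-07 at 6 h and -1.23 ± 0.083, adjusted p = 4.62e-09 at 24 h, which is 2.35-fold lower. The response was larger at 24 h than at 6 h, with a difference of the log2 fold changes of -0.41 ± 0.12, adjusted p = 0.0176. SLC16A1, encoding the lactate and pyruvate carrier MCT1, had log2 fold changes of -0.35 (adjusted p = 9.21e-05) and -0.51 (adjusted p = 1.69e-06). The share of SLC16A3 in the summed level per length of the pair went from 52.1 ± 0.419% (SD, n = 3) to 43.9 ± 0.525% at 6 h and from 62.8 ± 1.48% to 50.5 ± 2.48% at 24 h. The size of these shares depends on the exon lengths used, 9.24 kb for SLC16A3 and 6.35 kb for SLC16A1.

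SLC2A3, encoding the high-affinity GLUT3, fell at 6 h only. Its log2 fold change was -0.33 ± 0.070, adjusted p = 0.000851 at 6 h and 0.0094 ± 0.069, adjusted p = 0.918 at 24 h, and the 2 responses differed by 0.34 ± 0.099, adjusted p = 0.0180. That difference missed the threshold without NXP800 6 h replicate 1 (adjusted p = 0.0571). The near-identical paralog SLC2A14 was too low to be tested, and reads that aligned to several places (1.86 to 3.37% of reads per library) were counted on no gene. SLC2A6, encoding the lysosomal transporter GLUT6, had log2 fold changes of -0.45 ± 0.15, adjusted p = 0.0218 and -0.56 ± 0.15, adjusted p = 0.00455. Its call at 6 h was lost without any one of DMSO 6 h replicate 2 or NXP800 6 h replicate 1 or 2 (adjusted p 0.0522 to 0.0679).

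At the hexokinase step 2 of the 3 genes rose. HK2, the inducible hexokinase of tumours and muscle (chr2:74834127-74893359), rose at both times. HK2 stood at 48.1, 44.01 and 51.2 CPM with DMSO and 87.97, 87.8 and 90.7 CPM with NXP800 at 6 h. At 24 h HK2 stood at 62.7, 63.3 and 74.4 CPM with DMSO and 106, 121 and 107 CPM with NXP800. No treated library overlapped the controls, and the log2 fold changes were 0.89 ± 0.078, adjusted p = 1.28e-07 at 6 h and 0.74 ± 0.078, adjusted p = 7.23e-07 at 24 h, with no difference called between them (adjusted p = 0.322).

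HK1, the constitutive hexokinase (chr10:69270000-69401882), was the most abundant of the step per length. HK1 stood at 252, 248 and 262 CPM with DMSO and 227, 225 and 236 CPM with NXP800 at 6 h. At 24 h HK1 stood at 302, 297 and 331 CPM with DMSO and 277, 246 and 277 CPM with NXP800. The groups did not overlap, although the shift was small: log2 -0.15 ± 0.065, adjusted p = 0.0690 at 6 h, where the fit with the replicate number as a block gave adjusted p = 0.0117, and -0.22 ± 0.065, adjusted p = 0.00879 at 24 h. The call at 24 h was lost without any one of DMSO 24 h replicate 3 or NXP800 24 h replicate 2 (adjusted p 0.0536 to 0.0840). HK2 thereby took a larger part of the HK1 and HK2 sum per length, 31.02 ± 0.197% (SD, n = 3) against 17.9 ± 0.742% in controls at 6 h and 32.7 ± 3.09% against 19.98 ± 0.651% at 24 h. HK1 stayed the higher of the pair in every group.

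HKDC1, a hexokinase domain protein with low glucose-phosphorylating activity (chr10:69220332-69267552), showed the largest log2 fold change of the module from a very low base. HKDC1 stood at 0.539, 0.851 and 0.608 CPM with DMSO and 4.27, 4.68 and 4.36 CPM with NXP800 at 6 h. At 24 h HKDC1 stood at 0.769, 0.336 and 0.687 CPM with DMSO and 5.55, 10.03 and 13.4 CPM with NXP800. The controls held 10 to 27 counts per library and the treated libraries 139 to 153 at 6 h and 168 to 421 at 24 h, so the groups were wide apart and the treated libraries at 24 h scattered most. The log2 fold changes were 2.73 ± 0.32, adjusted p = 3.15e-06 and 4.01 ± 0.32, adjusted p = 2.98e-08, and their difference of 1.28 had adjusted p = 0.0690, or 0.0149 with the replicate block. Without NXP800 24 h replicate 1, the lowest treated library, the difference was 1.56 with adjusted p = 0.00577. HKDC1 ends 2447 bases before HK1 starts, and HK1 did not rise. HK1 held 7341 to 9643 counts per library, so a change of HKDC1's size could hardly show in it. A link between the 2 genes was not tested. Even after 24 h of NXP800, HKDC1 stood at 2.29 CPM per kilobase, against 38.8 for HK1 and 18.8 for HK2.

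**Figure D2:**
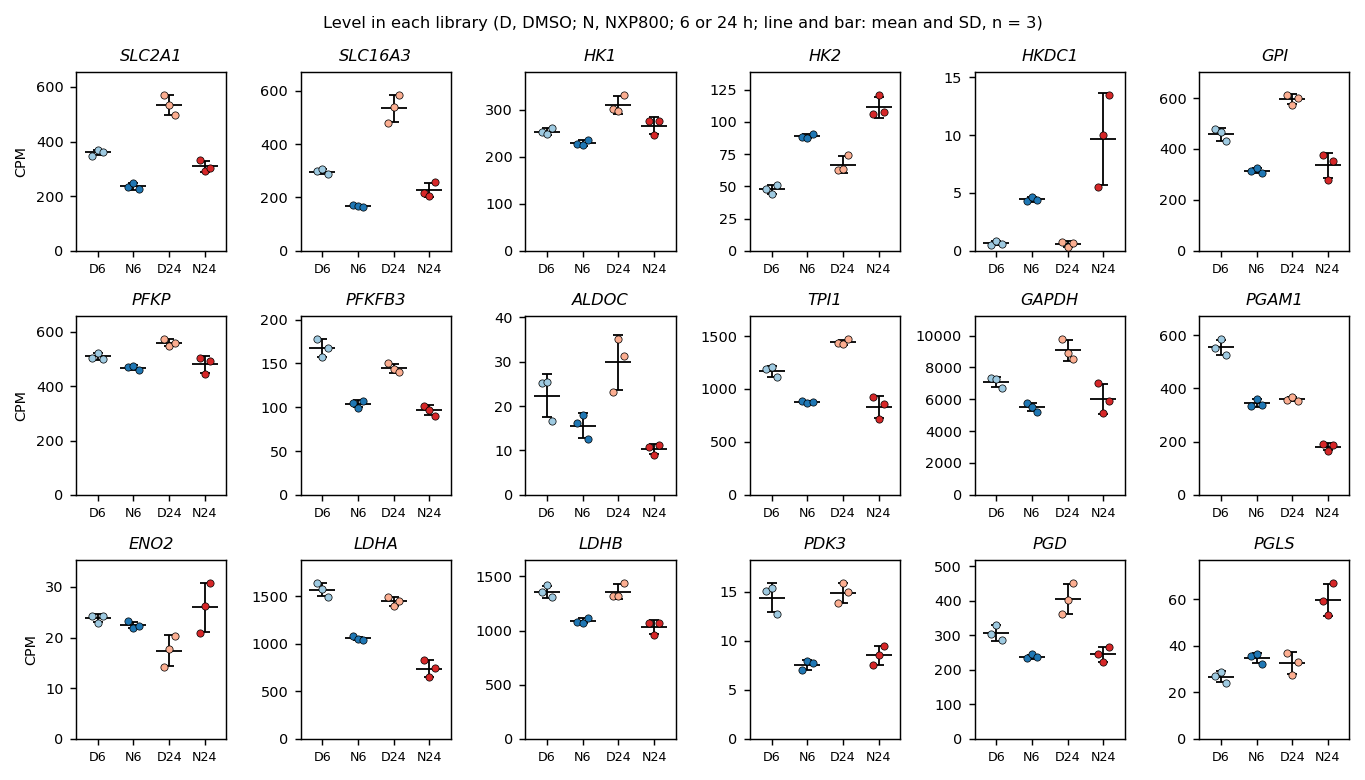
Level in each of the 12 libraries, in CPM, for 18 members (points), with the mean and SD of each group of 3 (line and bars); D is DMSO, N is NXP800, and 6 and 24 are hours. Treated libraries of SLC16A3, GPI, PGAM1, LDHA and PDK3 lie below all controls of their time, and those of HK2, HKDC1 and PGLS lie above, PGLS at 24 h with a wide gap and at 6 h with a narrow one.

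GPI, which interconverts glucose 6-phosphate and fructose 6-phosphate (chr19:34359718-34402413), fell at both times. GPI stood at 478, 468 and 429.9 CPM with DMSO and 314, 324 and 306 CPM with NXP800 at 6 h. At 24 h GPI stood at 611, 573 and 599 CPM with DMSO and 375, 279.7 and 354 CPM with NXP800. Treated and control libraries did not overlap, with log2 fold changes of -0.54 ± 0.087, adjusted p = 7.24e-05 and -0.82 ± 0.088, adjusted p = 8.11e-07. The difference of the responses, -0.28, had adjusted p = 0.108, 0.00897 with the replicate block and 0.0330 without NXP800 24 h replicate 1.

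At the phosphofructokinase step, the main control point of glycolysis, all 3 genes had fallen at 24 h. PFKP, the platelet form (chr10:3067548-3136805), held 69.04 ± 0.331% (SD, n = 3) of the summed PFK level per length in DMSO 6 h libraries. PFKP stood at 506, 523 and 499.8 CPM with DMSO and 469.7, 476 and 459 CPM with NXP800 at 6 h. At 24 h PFKP stood at 573, 548 and 559.6 CPM with DMSO and 506, 446 and 492 CPM with NXP800. All treated libraries were lower, with log2 fold changes of -0.12 ± 0.061, adjusted p = 0.107 at 6 h (0.0331 with the replicate block) and -0.22 ± 0.061, adjusted p = 0.00617 at 24 h, a call lost without NXP800 24 h replicate 2 (adjusted p = 0.0534). The muscle form PFKM fell at both times, with log2 fold changes of -0.47 ± 0.077, adjusted p = 8.38e-05 and -0.72 ± 0.078, adjusted p = 9.07e-07. The difference of its responses, -0.25, had adjusted p = 0.101, 0.00827 with the block and 0.0262 to 0.0426 without DMSO 24 h replicate 1 or NXP800 24 h replicate 3. The share of PFKM went from 14.9 ± 0.154% to 12.1 ± 0.357% at 6 h and from 12.7 ± 1.12% to 9.40 ± 0.854% at 24 h. PFKL, the liver form, had log2 fold changes of -0.16 ± 0.062, adjusted p = 0.0452 and -0.32 ± 0.062, adjusted p = 0.000336. The 6 h call of PFKL was lost without any one of DMSO 6 h replicate 1 or 2, NXP800 6 h replicate 1, 2 or 3, DMSO 24 h replicate 1 or 3 or NXP800 24 h replicate 2 (adjusted p 0.0501 to 0.137), and it was also lost with DESeq2's test (adjusted p = 0.107).

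PFKFB3, the kinase that makes the phosphofructokinase activator fructose 2,6-bisphosphate in proliferating cells (chr10:6144921-6326637), was the highest PFKFB gene per length. PFKFB3 stood at 178, 157 and 167 CPM with DMSO and 105, 99.6 and 107 CPM with NXP800 at 6 h. At 24 h PFKFB3 stood at 150.3, 143 and 140.4 CPM with DMSO and 102, 96.8 and 90.4 CPM with NXP800. The groups were well apart at both times, with log2 fold changes of -0.69 ± 0.064, adjusted p = 2.56e-07 and -0.59 ± 0.064, adjusted p = 1.13e-06. PFKFB2, the heart form, rose at 6 h, and its log2 fold changes were 0.34 ± 0.12, adjusted p = 0.0232 and 0.20 ± 0.12, adjusted p = 0.182. The 6 h call of PFKFB2 was lost without any one of DMSO 6 h replicate 1 or 3 or NXP800 6 h replicate 1 (adjusted p 0.0532 to 0.0858). PFKFB4 had log2 fold changes of -0.48 ± 0.26, adjusted p = 0.125 and -0.13 ± 0.25, adjusted p = 0.683. At 6 h its adjusted p was 0.00226 with the replicate block and 0.0409 without NXP800 24 h replicate 2, and at 24 h 0.0261 without NXP800 24 h replicate 2, with a log2 fold change there of -0.57.

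ALDOC, the brain-type aldolase (chr17:28573120-28576895), showed the strongest fall of the module at 24 h. ALDOC stood at 25.1, 25.3 and 16.7 CPM with DMSO and 16.2, 18.1 and 12.6 CPM with NXP800 at 6 h. At 24 h ALDOC stood at 23.1, 35.1 and 31.3 CPM with DMSO and 10.7, 9.03 and 11.2 CPM with NXP800. One DMSO library lay within the treated range at 6 h, and at 24 h the groups were far apart. The log2 fold changes were -0.52 ± 0.17, adjusted p = 0.0189 and -1.53 ± 0.18, adjusted p = 2.16e-06, the latter 2.89-fold lower, and their difference was -1.01 ± 0.25, adjusted p = 0.00684. The 6 h call was lost without any one of DMSO 6 h replicate 1 or 2 or NXP800 6 h replicate 3 (adjusted p 0.0810 to 0.0949). In GENCODE, a gene on the other strand covers 11.3% of ALDOC exon bases.

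ALDOA, the aldolase that dominates in most tissues (chr16:30064279-30070420), could not be read as a level here. It held 42 to 323 counts per library. Per length, in DMSO 6 h libraries, ALDOA stood at 0.613 CPM per kilobase, ALDOC at 8.57 and TPI1, next in the pathway, at 433. A second RefSeq gene, LOC112694756 (chr16:30053151-30070414), covers 99.9% of the ALDOA span and held 22 to 76 counts, and reads that lay on more than one gene, 2.10 to 2.43% of reads per library, were counted on none. How far this lowered ALDOA was not tested. Its log2 fold changes were -0.14 ± 0.25, adjusted p = 0.677 and -0.47 ± 0.20, adjusted p = 0.0603. At 24 h the adjusted p was 0.0112 with the replicate block and 0.0253 to 0.0475 without any one of NXP800 6 h replicate 2 or 3, DMSO 24 h replicate 1 or NXP800 24 h replicate 1.

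TPI1, triose phosphate isomerase (chr12:6867420-6870948), catalyses the next step. TPI1 stood at 1190.5, 1205 and 1109 CPM with DMSO and 882, 867 and 878 CPM with NXP800 at 6 h. At 24 h TPI1 stood at 1431, 1424 and 1469.8 CPM with DMSO and 924, 717 and 854 CPM with NXP800. The controls were above all treated libraries, with log2 fold changes of -0.42 ± 0.081, adjusted p = 0.000413 at 6 h and -0.79 ± 0.081, adjusted p = 5.12e-07 at 24 h. The fall was larger at 24 h, with a difference of -0.38 ± 0.11, adjusted p = 0.0227, a call lost without any one of DMSO 6 h replicate 3 or NXP800 6 h replicate 1 (adjusted p 0.0521 to 0.0539). Counts on the pseudogenes TPI1P2 and TPI1P3 were 0.0779 to 0.303% of those on TPI1.

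Every gene of lower glycolysis except ENO2 fell at both times. GAPDH, which makes the NADH that lactate dehydrogenase uses (chr12:6534517-6538371), was the member with the highest level per length. GAPDH stood at 7334, 7242 and 6733 CPM with DMSO and 5784, 5543 and 5231 CPM with NXP800 at 6 h. At 24 h GAPDH stood at 9770.1, 8894 and 8532 CPM with DMSO and 7006, 5166 and 5902 CPM with NXP800. The groups did not overlap, with log2 fold changes of -0.36 ± 0.10, adjusted p = 0.00644 and -0.59 ± 0.10, adjusted p = 0.000120, so that GAPDH was not constant between treated and control libraries. In GENCODE, a gene on the other strand covers 17.6% of GAPDH exon bases. The difference of its responses, -0.23, had adjusted p = 0.272, 0.0461 with the replicate block and 0.0423 without NXP800 24 h replicate 1.

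PGAM1, phosphoglycerate mutase (chr10:97426191-97433444), fell most among the enzymes of lower glycolysis. PGAM1 stood at 551, 584 and 526 CPM with DMSO and 332, 361 and 337 CPM with NXP800 at 6 h. At 24 h PGAM1 stood at 357, 367 and 353 CPM with DMSO and 190.3, 166 and 187 CPM with NXP800. The gap between the groups was many times the spread within them, with log2 fold changes of -0.69 ± 0.067, adjusted p = 3.82e-07 and -0.99 ± 0.068, adjusted p = 5.35e-09. The response at 24 h was more negative, with a difference of -0.30 ± 0.095, adjusted p = 0.0287, a call lost without any one of DMSO 6 h replicate 1 or 3, NXP800 6 h replicate 2 or DMSO 24 h replicate 2 (adjusted p 0.0599 to 0.0805). Counts on the pseudogene PGAM1P5 were at most 0.0342% of those on PGAM1.

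PGK1, the first ATP-yielding enzyme of glycolysis, had log2 fold changes of -0.37 ± 0.072, adjusted p = 0.000381 and -0.72 ± 0.072, adjusted p = 4.05e-07. Its response at 24 h was more negative, with a difference of -0.35 ± 0.10, adjusted p = 0.0193, a call lost without any one of DMSO 6 h replicate 3 or NXP800 6 h replicate 2 (adjusted p 0.0513 to 0.0552). PKM, pyruvate kinase, had log2 fold changes of -0.22 ± 0.075, adjusted p = 0.0209 and -0.42 ± 0.075, adjusted p = 0.000156. The 6 h call of PKM was lost without any one of DMSO 6 h replicate 1 or NXP800 6 h replicate 1 or 2 (adjusted p 0.0565 to 0.0733). ENO1, the main enolase, had log2 fold changes of -0.22 ± 0.085, adjusted p = 0.0398 and -0.24 ± 0.085, adjusted p = 0.0258. Both ENO1 calls were close to the threshold. At 6 h the call was lost without any one of DMSO 6 h replicate 1 or 2, NXP800 6 h replicate 1, 2 or 3, DMSO 24 h replicate 3 or NXP800 24 h replicate 3 (adjusted p 0.0501 to 0.140). At 24 h it was lost without any one of DMSO 24 h replicate 1 or 3 or NXP800 24 h replicate 2 or 3 (adjusted p 0.0627 to 0.146).

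ENO2, the neuronal enolase (chr12:6914580-6923697), rose at 24 h only. ENO2 stood at 24.2, 22.9 and 24.3 CPM with DMSO and 23.2, 21.97 and 22.3 CPM with NXP800 at 6 h. At 24 h ENO2 stood at 14.2, 17.8 and 20.2 CPM with DMSO and 20.9, 26.1 and 30.7 CPM with NXP800. The groups overlapped at 6 h, and at 24 h all treated libraries were above all controls by a narrow margin. The log2 fold changes were -0.083 ± 0.13, adjusted p = 0.605 and 0.58 ± 0.13, adjusted p = 0.00111, and they differed by 0.66 ± 0.18, adjusted p = 0.0131. ENO2 remained a minor enolase, at 6.06 CPM per kilobase after 24 h of NXP800 against 883 for ENO1.

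Both subunits of lactate dehydrogenase were lower in treated libraries. LDHA, the subunit favoured in glycolytic tissue (chr11:18394563-18408425), whose promoter letters are printed above, was high in all controls. LDHA stood at 1639, 1579.7 and 1497 CPM with DMSO and 1078, 1054 and 1042 CPM with NXP800 at 6 h. At 24 h LDHA stood at 1489.5, 1397 and 1451 CPM with DMSO and 826, 649 and 741 CPM with NXP800. Treated libraries were lower without overlap, with log2 fold changes of -0.57 ± 0.080, adjusted p = 1.82e-05 at 6 h and -0.97 ± 0.080, adjusted p = 4.90e-08 at 24 h, the latter 1.96-fold. The response was more negative at 24 h, with a difference of -0.40 ± 0.11, adjusted p = 0.0165.

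LDHB, the subunit favoured in oxidative tissue (chr12:21635342-21657842), was the higher of the pair per length. In controls this order rests on the exon lengths used, 6.03 kb for LDHA and 2.98 kb for LDHB. In CPM, LDHA was the higher in every DMSO library at both times. LDHB stood at 1352, 1418 and 1309 CPM with DMSO and 1079.5, 1073 and 1120.0 CPM with NXP800 at 6 h. At 24 h LDHB stood at 1323, 1318 and 1437 CPM with DMSO and 1072, 961 and 1071 CPM with NXP800. Its groups did not overlap either, with log2 fold changes of -0.32 ± 0.069, adjusted p = 0.00105 and -0.39 ± 0.069, adjusted p = 0.000139. The LDHA share of the pair went from 36.4 ± 0.998% (SD, n = 3) to 32.4 ± 0.805% at 6 h and from 34.5 ± 1.23% to 26.1 ± 1.36% at 24 h. In GENCODE, 33.4% of LDHB exon bases lie under another gene on the same strand.

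**Figure D3:**
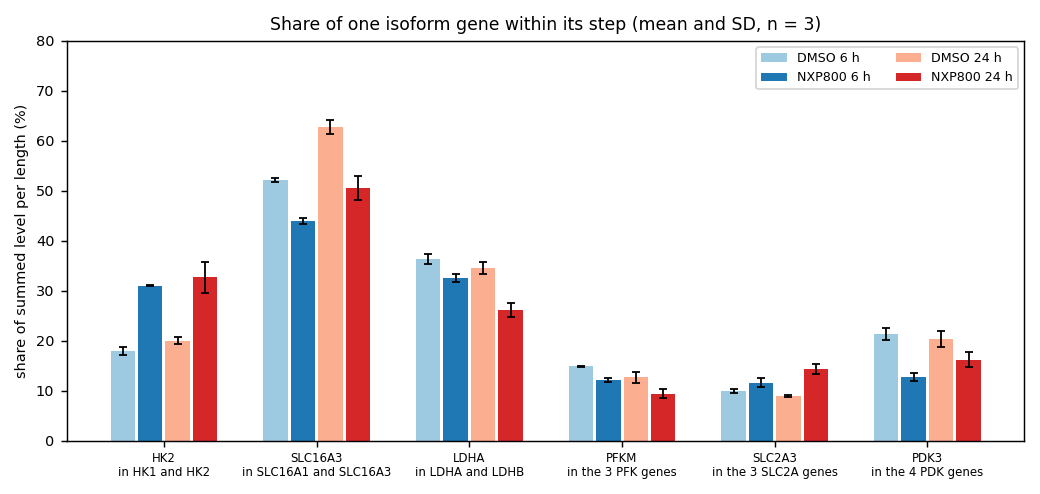
Share of 1 gene in the summed level per length of the genes of its step, in percent, as mean and SD of 3 libraries per group. The HK2 bars are higher with NXP800 than with DMSO at both times, and the SLC16A3, LDHA, PFKM and PDK3 bars are lower.

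Pyruvate dehydrogenase gates the use of pyruvate in the mitochondrion, and PDK kinases switch it off. Transcripts of its subunit PDHA1 and of 2 of the kinases had fallen at 24 h. PDHA1, the catalytic subunit that PDKs phosphorylate (chrX:19343927-19361718), was far more abundant per length than any PDK. PDHA1 stood at 116, 124 and 108 CPM with DMSO and 106, 106 and 100.3 CPM with NXP800 at 6 h. At 24 h PDHA1 stood at 96.2, 90.4 and 103 CPM with DMSO and 69.2, 65.9 and 75.5 CPM with NXP800. The groups did not overlap at either time, but the shift at 6 h was small, with log2 fold changes of -0.16 ± 0.070, adjusted p = 0.0715 and -0.46 ± 0.071, adjusted p = 3.90e-05. At 6 h the adjusted p was 0.00744 with the replicate block and 0.0373 without DMSO 6 h replicate 3. The response was more negative at 24 h, with a difference of -0.30 ± 0.099, adjusted p = 0.0330, a call lost without any one of DMSO 6 h replicate 1 or 3, NXP800 6 h replicate 1 or 2, DMSO 24 h replicate 1 or 3 or NXP800 24 h replicate 1 or 2 (adjusted p 0.0516 to 0.0864). PDHA1 and MAP3K15, on the other strand, share 19.3% of PDHA1 exon bases.

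PDK3, the kinase isoform least inhibited by pyruvate (chrX:24465286-24550466), fell most of the kinases. PDK3 stood at 15.1, 15.4 and 12.7 CPM with DMSO and 7.00, 7.92 and 7.71 CPM with NXP800 at 6 h. At 24 h PDK3 stood at 13.9, 15.9 and 14.9 CPM with DMSO and 7.50, 8.59 and 9.44 CPM with NXP800. All treated libraries were below all controls, with log2 fold changes of -0.93 ± 0.11, adjusted p = 3.34e-06 and -0.81 ± 0.11, adjusted p = 1.18e-05. Its share of the 4 PDK genes per length went from 21.2 ± 1.22% (SD, n = 3) to 12.7 ± 0.854% at 6 h and from 20.3 ± 1.55% to 16.2 ± 1.54% at 24 h.

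PDK2, the widely expressed isoform, had log2 fold changes of -0.37 ± 0.13, adjusted p = 0.0206 and -0.50 ± 0.12, adjusted p = 0.00204, and its 6 h call was lost without any one of DMSO 6 h replicate 1 or NXP800 6 h replicate 1 or 3 (adjusted p 0.0573 to 0.0731). PDK2 shares 38.6% of its exon bases with SAMD14 on the other strand. PDK1, a HIF target, moved neither way by the test, with log2 0.19 ± 0.13, adjusted p = 0.244 and -0.29 ± 0.14, adjusted p = 0.0772. With the replicate block, PDK1 was called higher at 6 h (adjusted p = 0.0183), lower at 24 h (0.00159) and different between the times (0.000723, against 0.0726 for a difference of -0.48). Without DMSO 24 h replicate 3, the lowest control, the adjusted p was 0.00893 at 24 h and 0.0144 for the difference, which was then -0.62. PDK4, the kinase induced by fasting, held 12 to 30 counts per library and had log2 fold changes of -0.40 ± 0.33, adjusted p = 0.333 and -0.56 ± 0.31, adjusted p = 0.137.

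In the pentose phosphate pathway 1 enzyme rose at both times, while 3 others fell at 6 h and 4 at 24 h. PGLS, 6-phosphogluconolactonase, the second enzyme of the oxidative branch (chr19:17511649-17521288), rose. PGLS stood at 26.9, 28.8 and 24.1 CPM with DMSO and 35.5, 36.4 and 32.2 CPM with NXP800 at 6 h. At 24 h PGLS stood at 36.8, 27.5 and 33.1 CPM with DMSO and 59.2, 52.99 and 66.8 CPM with NXP800. Treated libraries were above controls at both times, with log2 fold changes of 0.38 ± 0.11, adjusted p = 0.00686 and 0.88 ± 0.11, adjusted p = 3.31e-06. The responses differed by 0.50 ± 0.15, adjusted p = 0.0243, a call lost without any one of DMSO 6 h replicate 2, NXP800 6 h replicate 3, DMSO 24 h replicate 2 or NXP800 24 h replicate 3 (adjusted p 0.0588 to 0.0680). PGLS-DT, on the other strand, covers 8.94% of PGLS exon bases.

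PGD, 6-phosphogluconate dehydrogenase, the next enzyme and a source of NADPH (chr1:10399064-10420511), fell. PGD stood at 305, 331 and 286 CPM with DMSO and 234, 245 and 236 CPM with NXP800 at 6 h. At 24 h PGD stood at 363, 403 and 451 CPM with DMSO and 247, 223 and 265 CPM with NXP800. Its groups did not overlap, with log2 fold changes of -0.37 ± 0.084, adjusted p = 0.00149 and -0.73 ± 0.084, adjusted p = 1.95e-06, and a difference of -0.36 ± 0.12, adjusted p = 0.0346. The difference of PGD was lost without any one of DMSO 6 h replicate 1 or 3, NXP800 6 h replicate 1, 2 or 3, DMSO 24 h replicate 2 or 3 or NXP800 24 h replicate 2 (adjusted p 0.0531 to 0.0961). PGD and PGLS, neighbours in the pathway, thus moved in opposite directions at both times, and PGD stayed the more abundant per length (73.5 against 21.01 CPM per kilobase after 24 h of NXP800).

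Of the non-oxidative branch, TKT (transketolase) had log2 fold changes of -0.44 ± 0.093, adjusted p = 0.000973 and -0.74 ± 0.094, adjusted p = 5.40e-06. The difference of its responses, -0.30, had adjusted p = 0.103, 0.00589 with the replicate block and 0.0293 without NXP800 24 h replicate 1. RPIA, the ribose 5-phosphate isomerase, fell with log2 fold changes of -0.36 ± 0.063, adjusted p = 0.000150 and -0.44 ± 0.063, adjusted p = 1.77e-05. TALDO1 (transaldolase) had log2 fold changes of -0.26 ± 0.13, adjusted p = 0.110 and -0.44 ± 0.13, adjusted p = 0.00946. At 6 h its adjusted p was 0.000798 with the replicate block and 0.0324 without NXP800 24 h replicate 1. The call of TALDO1 at 24 h was lost without any one of DMSO 24 h replicate 1 or NXP800 24 h replicate 2 (adjusted p 0.0521 to 0.0732).

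The responses at 6 h and 24 h, each against its own controls, were alike in order. Across the 36 tested members, Pearson's r was 0.940 and Spearman's rho 0.857, and over all 15979 genes Pearson's r was 0.646. HKDC1, with log2 fold changes of 2.73 and 4.01, lies far from the other members and weighs on their Pearson's r. No Spearman's rho over all genes is given, so the 2 sets cannot be compared by order. These values are descriptions across genes, which share the same libraries and are not independent replicates. By the test of the difference, 11 members responded differently at 24 h and at 6 h, as did 25.8% of all tested genes. Of these members, 8 responded more negatively at 24 h (SLC16A3, ALDOC, TPI1, PGK1, PGAM1, LDHA, PDHA1 and PGD) and 3 more positively (SLC2A3, ENO2 and PGLS), while of all tested genes 2205 (13.8%) responded more negatively and 1924 more positively. With the replicate number as a block, 13 members responded more negatively at 24 h. The count was 5 without DMSO 6 h replicate 1, 3 without DMSO 6 h replicate 3, 5 without NXP800 6 h replicate 1 and 4 without NXP800 6 h replicate 2. The differences of SLC16A3, ALDOC, ENO2 and LDHA were called with any 1 library left out. Among the 3 NXP800 24 h libraries, replicate 2 was the lowest in 22 of the 37 members, the untested FBP1 counted among the 37. That library also had the highest TMM factor of the 3, 1.03 against 0.959 and 0.990. The share over all tested genes is not given, so this count is no result about the members.

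**Figure D4:**
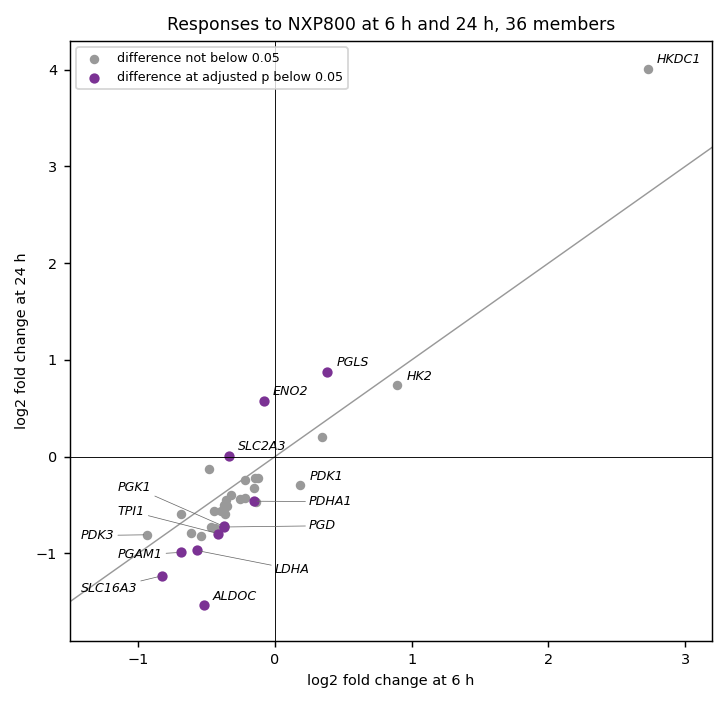
Log2 fold change at 24 h (vertical) against that at 6 h (horizontal) for 36 members, with the line of equal response; purple marks the 11 members whose responses differed at an adjusted p below 0.05. Most members lie in the lower left, HKDC1 lies alone at the upper right, and ALDOC lies farthest below the line.

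The further genes of glucose metabolism moved both ways, as did all tested genes. A wider list of 91 further genes of glucose metabolism, its regulators and HIF targets had 70 tested members. Of these, 19 rose and 21 fell at 6 h, where 25.0% of all tested genes rose and 27.8% fell. At 24 h, 22 rose and 26 fell, where 27.5% of all tested genes rose and 28.6% fell. The median log2 fold changes of the 70 genes were -0.051 and 0.015, against -0.36 and -0.49 for the 36 members.

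Of 15 other isoenzymes of glycolysis only 4 were expressed enough to be tested. BPGM, which makes 2,3-bisphosphoglycerate, rose at 6 h (0.43 ± 0.097, adjusted p = 0.00150), ENO3, the muscle enolase, rose at 24 h (0.47 ± 0.18, adjusted p = 0.0399), and ADPGK, the ADP-dependent glucokinase, fell at 24 h (-0.25 ± 0.063, adjusted p = 0.00266). Among other sugar and monocarboxylate carriers, 10 of 16 were tested, with 1 rise and 6 falls at 6 h and 4 falls at 24 h. Of all tested genes, 25.0% rose and 27.8% fell at 6 h, and 27.5% rose and 28.6% fell at 24 h. SLC2A12 (GLUT12) fell most, with log2 fold changes of -1.85 ± 0.33, adjusted p = 0.000199 and -3.14 ± 0.37, adjusted p = 2.57e-06, at 29 to 69 counts per control library and 4 to 19 per treated library, and TBPL1, on the other strand, covers 51.2% of its exon bases. SLC2A10 (GLUT10) fell at 6 h (-0.89 ± 0.13, adjusted p = 3.92e-05), and SLC2A13, a myo-inositol carrier, fell at 24 h (-0.69 ± 0.18, adjusted p = 0.00318). SLC2A4, the insulin-regulated GLUT4, rose at 6 h (log2 fold change 1.22 ± 0.31, adjusted p = 0.00316), from 9 to 12 counts per control library.

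Most genes for mitochondrial use of pyruvate had fallen at 24 h, while 2 enzymes rose. Of 11 tested genes, 5 fell and 2 rose at 6 h, and 8 fell and 2 rose at 24 h, where 27.8% and 28.6% of all tested genes fell and 25.0% and 27.5% rose. MPC2, a subunit of the mitochondrial pyruvate carrier, fell with log2 fold changes of -0.36 ± 0.089, adjusted p = 0.00312 and -0.93 ± 0.090, adjusted p = 2.82e-07, with DCAF6 on the other strand over 21.8% of its exon bases. DLAT, the acetyltransferase of the pyruvate dehydrogenase complex, fell with log2 fold changes of -0.37 ± 0.059, adjusted p = 7.54e-05 and -0.69 ± 0.060, adjusted p = 8.62e-08. PDP1, the phosphatase that reactivates pyruvate dehydrogenase and so opposes the PDKs, rose with log2 fold changes of 0.77 ± 0.11, adjusted p = 2.18e-05 and 0.79 ± 0.11, adjusted p = 1.53e-05. PCK2, the mitochondrial enzyme that makes phosphoenolpyruvate, rose most, from 40.4 ± 3.04 CPM (SD, n = 3) to 227 ± 15.2 CPM at 6 h and from 66.7 ± 24.97 to 259.9 ± 16.6 CPM at 24 h. Its log2 fold changes were 2.49 ± 0.17, adjusted p = 9.05e-09 and 1.96 ± 0.17, adjusted p = 6.36e-08.

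Genes of the branches that take sugar phosphates away from glycolysis moved both ways. In hexosamine and glycogen synthesis all 14 listed genes were tested, with 5 rises and 2 falls at 6 h and 8 rises and 3 falls at 24 h. Of all tested genes, 25.0% rose and 27.8% fell at 6 h, and 27.5% rose and 28.6% fell at 24 h. At 24 h 7 of the 14 responded more positively than at 6 h, as did 1924 of all 15979 tested genes. GFPT1, the rate-limiting enzyme of the hexosamine pathway, rose with log2 fold changes of 0.73 ± 0.082, adjusted p = 1.84e-06 and 1.33 ± 0.083, adjusted p = 2.03e-09, and its paralog GFPT2 rose with log2 fold changes of 1.33 ± 0.10, adjusted p = 2.63e-08 and 1.40 ± 0.10, adjusted p = 1.05e-08. GYS1, glycogen synthase, fell with log2 fold changes of -0.79 ± 0.093, adjusted p = 3.25e-06 and -0.49 ± 0.091, adjusted p = 0.000252, and PGM1, which links glucose 1-phosphate and 6-phosphate, with -0.60 ± 0.10, adjusted p = 0.000117 and -0.50 ± 0.10, adjusted p = 0.000465. Of the other pentose phosphate genes, 7 of 9 were tested, with 2 falls at 6 h and 3 falls and 2 rises at 24 h. These counts stand beside the same shares of all tested genes as those of hexosamine and glycogen synthesis. SHPK, sedoheptulokinase, fell with log2 fold changes of -0.66 ± 0.090, adjusted p = 1.34e-05 and -0.79 ± 0.090, adjusted p = 1.74e-06, but 75.4% of its exon bases lie under other genes on the same strand, TRPV1 among them. At 24 h RBKS, ribokinase, rose with a log2 fold change of 0.76 ± 0.17, adjusted p = 0.00123, and H6PD, the hexose 6-phosphate dehydrogenase of the endoplasmic reticulum, rose with one of 0.63 ± 0.13, adjusted p = 0.000580. PGM2, a phosphopentomutase, fell at 6 h (log2 fold change -0.37 ± 0.071, adjusted p = 0.000384).

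HIF targets outside glucose metabolism and regulators of glycolytic genes did not move one way. Of 13 tested HIF targets, 5 rose and 5 fell at 6 h, and 4 rose and 6 fell at 24 h. Of all tested genes, 25.0% rose and 27.8% fell at 6 h, and 27.5% rose and 28.6% fell at 24 h. NDRG1 rose with log2 fold changes of 0.90 ± 0.14, adjusted p = 5.58e-05 and 1.51 ± 0.14, adjusted p = 1.83e-07. EGLN3, the prolyl hydroxylase that marks HIF for destruction, fell with log2 fold changes of -1.52 ± 0.15, adjusted p = 3.35e-07 and -1.93 ± 0.15, adjusted p = 2.51e-08, and the carbonic anhydrase CA12 with -1.68 ± 0.18, adjusted p = 1.15e-06 and -0.85 ± 0.17, adjusted p = 0.000442. ANKRD37 rose at 6 h (log2 fold change 0.54 ± 0.21, adjusted p = 0.0438), with UFSP2 on the other strand over 40.4% of its exon bases, and NDUFA4L2 rose at 24 h (log2 fold change 1.55 ± 0.34, adjusted p = 0.00109). All 11 regulators were tested, and 5 rose and 1 fell at each time, beside the same shares of all tested genes. PRKAA2, a catalytic subunit of the energy sensor AMPK, rose with log2 fold changes of 0.94 ± 0.14, adjusted p = 2.29e-05 and 0.44 ± 0.14, adjusted p = 0.0121, and SIRT6, a deacetylase that represses glycolytic genes, rose with log2 fold changes of 0.65 ± 0.089, adjusted p = 1.54e-05 and 0.69 ± 0.087, adjusted p = 4.58e-06. PPARGC1A, a coactivator of mitochondrial genes, fell with log2 fold changes of -1.41 ± 0.16, adjusted p = 2.96e-06 and -1.31 ± 0.18, adjusted p = 1.01e-05.

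**Figure D5:**
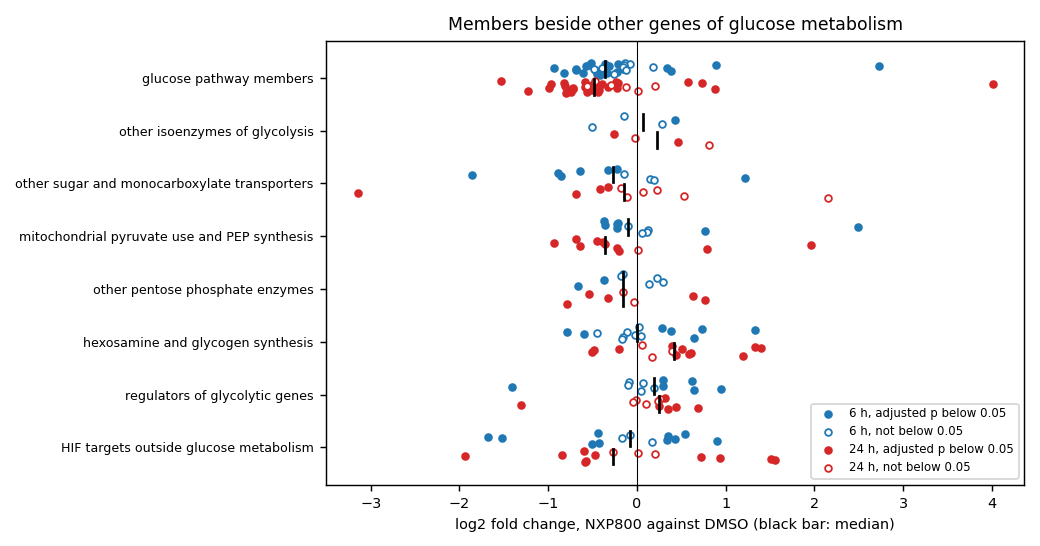
Log2 fold change of NXP800 against DMSO for the tested genes of each list at 6 h (blue) and 24 h (red), with the median as a black bar; filled points have an adjusted p below 0.05. The medians of the members lie at -0.36 and -0.49, and those of hexosamine and glycogen synthesis at -0.0031 and 0.42.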

How the data were processed

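The deposited tables list unnormalized counts by gene symbol, which the authors made from paired-end reads of strand-specific mRNA libraries. Per the submitters' processing notes the tools were fastp 0.20.1, STAR 2.7.5a and HTSeq 0.12.4 on hg38 (GRCh38.p14). The strand setting and the rule for reads on several genes are not given in the sources used here. The counter's entries for reads on no gene, on several genes or aligned to several places entered neither library sizes nor tests.

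The analysis used edgeR 4.0.16 under R 4.3.3: filterByExpr, TMM and the quasi-likelihood test in 1 model of the 4 groups, with contrasts of NXP800 against DMSO at 6 h, at 24 h, and their difference. P-values were adjusted by Benjamini-Hochberg over the 15979 genes tested. Alternatives were median-of-ratios factors, library size only, other filters, each time point alone, a replicate block, DESeq2 1.42.0, an adjusted p below 0.01, and each library left out. The procedure was tested on simulated data. At 30810614 to 31947656 counts per library, the replicate spread exceeds counting error for all but low genes. Replicates differed beyond sampling noise (chi-square per degree of freedom 7.36 to 26.3).

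Replicate numbers come from the sample titles. After removal of group means, treated and control libraries of the same number correlated with r of 0.159 to 0.329, those of different numbers with -0.268 to 0.058. Removing the means itself lowers the second set where the first is above 0. The numbers were taken to pair the libraries. The main model left this pairing out, and calls, counts and standard errors are from it unless the block is named. With the block, 28 members fell and 5 rose at 6 h, and 28 fell and 4 rose at 24 h.

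Members and lists were chosen with earlier results of these data known. Values of every library are given for members called with a log2 fold change of at least 0.8 in size, for the highest isoenzyme per length of each step, and for those whose responses differed by at least 0.5. Of the wider lists, up to 2 rises and 2 falls per list and time are named. Exon lengths and overlaps are from GENCODE v44, which may differ from the models counted on, and positions and promoters from RefSeq.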

Additional observations from a re-analysis of the deposited data

Results flagged for a closer look

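For 11 members the response to NXP800 differed between 6 h and 24 h by edgeR's quasi-likelihood test of the difference itself, as it did for 25.8% of all tested genes. The differences of PDHA1, PGAM1, PGD, PGK1, PGLS, SLC2A3 and TPI1, 7 of the 11, were each lost when some 1 library was left out. A value below is the log2 fold change at 24 h minus that at 6 h, ± its standard error. The fall was deeper at 24 h for the lactate exporter SLC16A3, with a difference of -0.41 ± 0.12, adjusted p = 0.0176. The deepest shift was that of the aldolase ALDOC, -1.01 ± 0.25, adjusted p = 0.00684. In the stretch of glycolysis from triose phosphates to lactate, the differences were -0.38 ± 0.11, adjusted p = 0.0227 for TPI1, -0.35 ± 0.10, adjusted p = 0.0193 for PGK1, -0.30 ± 0.095, adjusted p = 0.0287 for PGAM1 and -0.40 ± 0.11, adjusted p = 0.0165 for LDHA. PDHA1, of pyruvate dehydrogenase, differed by -0.30 ± 0.099, adjusted p = 0.0330. PGD of the pentose phosphate pathway differed by -0.36 ± 0.12, adjusted p = 0.0346. The other 3 went upward. SLC2A3, which had fallen at 6 h, differed by 0.34 ± 0.099, adjusted p = 0.0180. ENO2, not called at 6 h and higher at 24 h, differed by 0.66 ± 0.18, adjusted p = 0.0131, and PGLS, higher at both times, by 0.50 ± 0.15, adjusted p = 0.0243. The 2 time points also differed in the share of reads on no gene (6.66 to 8.14% at 6 h, 2.73 to 3.67% at 24 h), in treated and control libraries alike, and its part in these differences was not tested.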

How the results depend on the processing

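Limits of these values are the small number of libraries and low counts for HKDC1, PDK4 and ALDOA. The counts of members higher and lower at 6 h and at 24 h stayed within 1.5 times under every alternative, and leaving out any 1 library kept 20 of 27 calls at 6 h, 26 of 30 at 24 h and 4 of 11 differences. Those that were lost are named with the genes. For the difference, the fit to the libraries of a single time point cannot be made. At an adjusted p below 0.01, 1 member responded more negatively at 24 h and 0 more positively, against 8 and 3 at 0.05. With the replicate number as a block, which the pairing of the libraries allows, 13 responded more negatively, no call was lost, and the calls gained are named with the genes. The block changed no other call of a member. Leaving out 1 library gave 3 to 10 members with a more negative response. Scaling by library size only moved the median at 24 h from -0.49 to -0.40, while the median of all genes moved from -0.0033 to 0.086. It ended the calls of HK1 (adjusted p = 0.0597) and ENO1 (adjusted p = 0.0549) at 24 h and of the differences of PDHA1 (adjusted p = 0.0707) and PGD (adjusted p = 0.0577), and it turned the sign of the uncalled differences of HK1 (0.00024) and ENO1 (0.051). Median-of-ratios factors ended the 6 h calls of PFKL (adjusted p = 0.0848) and ENO1 (adjusted p = 0.0695). Without the filter on low counts the calls of PFKL at 6 h (adjusted p = 0.122) and of the differences of PGAM1 (adjusted p = 0.0571) and PDHA1 (adjusted p = 0.0579) were lost. Calls gained there were PFKFB4 (0.00018) and TALDO1 (0.0035) at 6 h, ALDOA (0.0058) and PDK1 (0.022) at 24 h, and the differences of HKDC1 (0.00078) and PDK1 (0.0091). With the 24 h libraries alone the call of ENO1 (adjusted p = 0.0945) was lost and ALDOA (0.038) was gained. The 6 h libraries alone gained PFKFB4 (0.031) and TALDO1 (0.011). DESeq2's test gained the differences of HKDC1 (0.022) and PDK1 (0.047). Leaving out 1 library turned the sign of values that were not called, with ranges of -0.60 to 0.032 for the difference of ALDOA, -0.12 to 0.050 for ENO1, -0.38 to 0.092 for PDK4, -0.12 to 0.61 for PFKFB4 and -0.30 to 0.029 for SLC2A6, of -0.50 to 0.13 for ALDOA at 6 h, and of -0.57 to 0.13 for PFKFB4 and -0.045 to 0.052 for SLC2A3 at 24 h. The cause of these shifts was not tested.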

Other observations

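In 3 of the lists beside the members, at least 4 genes responded differently at 24 h and at 6 h, where 25.8% of all tested genes did. These were 7 of 14 genes of hexosamine and glycogen synthesis and 4 of 13 HIF targets, all more positive at 24 h. The third list, mitochondrial pyruvate use, had 4 of 11, all more negative. The cut at 4 genes took no account of list size. The counts of 4 of 13 and 4 of 11 lie near the 25.8%, so they are no result about those lists. The genes described here were singled out after their values were seen. In hexosamine synthesis, which makes UDP-N-acetylglucosamine for protein glycosylation, UAP1, the enzyme of its last step, stood at 49.4 ± 0.467 CPM (SD, n = 3) with DMSO and 77.1 ± 3.70 CPM with NXP800 at 6 h, and at 49.2 ± 3.44 and 113 ± 12.8 CPM at 24 h. Its log2 fold changes were 0.64 (adjusted p = 4.49e-06) and 1.20 (adjusted p = 3.48e-09), and they differed by 0.56 ± 0.11, adjusted p = 0.00165. PGM3, the enzyme before it, was not called at 6 h (-0.026, adjusted p = 0.804) and rose at 24 h (0.61, adjusted p = 7.61e-06), with a difference of 0.64 ± 0.11, adjusted p = 0.000692. The glycogen phosphorylases PYGL and PYGB were not called at 6 h and rose at 24 h, with differences of 0.60 ± 0.098, adjusted p = 0.000341, and 0.54 ± 0.10, adjusted p = 0.00139. OGT, which attaches the sugar to proteins, was called at neither time, and its responses differed by 0.85 ± 0.26, adjusted p = 0.0253.

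Among the 11 tested genes of mitochondrial pyruvate use, 4 responded more negatively at 24 h. They were MPC2 (-0.57 ± 0.13, adjusted p = 0.00358), the dehydrogenase subunit PDHB (-0.42 ± 0.10, adjusted p = 0.00691), the anchoring component PDHX (-0.36 ± 0.085, adjusted p = 0.00566) and DLAT (-0.32 ± 0.084, adjusted p = 0.0109). MPC2 stood at 35.9 ± 3.29 CPM (SD, n = 3) with DMSO and 18.8 ± 1.16 CPM with NXP800 at 24 h, and DLAT at 112 ± 2.26 and 69.7 ± 3.59 CPM.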
